A study of Arabidopsis thaliana with 12 samples.

Results

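The auxin class of Arabidopsis thaliana is described here in homografted plants as the 60 probe sets that the study's hormone table places under indole-3-acetic acid, taken by probe set identifier alone out of 22746 on the array without controls. By the loci of that table the 60 fall into 5 probe sets of auxin metabolism, 5 of PIN transporters, 4 of perception and signalling, 9 of the GH3 family, 23 of the SAUR family, 8 of EDA30 and its relatives and 6 others. The platform annotation gives a gene symbol for 21 of them, and the other 39 were named from the loci of the study's table, with RefSeq (TAIR10.1) symbols. More than 1 locus stands beside 5 of the probe sets, and where both are genes of the class the probe set carries both names (SAUR30, at5g53590, also reads at5g53588). The table was drawn up from genes that differ on these same arrays. Its members overlap the list of scion and rootstock differences in 7 probe sets (WES1, at5g13370/at5g13360, SAUR59, SAUR62/SAUR75, GH3.4/GH3.2, GH3.17 and SAUR32). Counts and directions of the members are therefore a description and not independent evidence.

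Auxin is made mainly in young organs and is moved from cell to cell by carriers, of which the PIN proteins drive efflux. It is perceived by the F-box receptors TIR1 and AFB, which bring Aux/IAA repressors to degradation and so free the ARF transcription factors. GH3, SAUR and Aux/IAA genes are the classical early auxin response genes. GH3 enzymes join auxin or other acids to amino acids, many SAUR proteins promote cell expansion, and auxin flow down the stem is known to guide the rejoining of vascular strands in a cut or grafted stem.

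The 12 ATH1 arrays hold 4 groups of 3 biological replicates, namely flower buds from the scion, flower buds from the rootstock, and leaves from either. All plants were wild-type Col-0 grown under long days, and in each the top of the young inflorescence stem had been cut off and wedged back onto the same plant, so the scion and the rootstock were of 1 genotype. Newly emerged closed buds and leaves were then taken from side branches above and below the union. No ungrafted stem was measured, so grafting and the position on the stem cannot be told apart. In these bulk samples fewer cells of a type and less RNA per cell cannot be told apart either. Values were deposited as log2 signals in which every probe set has its median over the 12 arrays set to 0. Each value below is therefore a deviation from that median, and neither a level nor an order of genes by level can be read from it.

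The organ labels were checked against lists of marker genes, of which 15 of 31 could be matched to a probe set. The platform annotation gave a single-gene probe set for 9, and the study's tables, chosen on these samples, named 6 more. The median of the 4 flower genes AP1, SEP1, SEP2 and SEP3 lay between 2.04 and 2.32 on the bud arrays and between -4.70 and -1.92 on the leaf arrays, and that of the 3 photosynthesis genes RCA, PRK and LHCB4.2 lay between -0.81 and -0.23 in buds and between 0.23 and 0.73 in leaves. Scion leaves had higher flower medians, at -2.61, -2.97 and -1.92 in replicates 1 to 3, than rootstock leaves, at -4.35, -4.70 and -4.29, and the study had chosen these 4 genes on these samples. Scion flower bud replicate 1 had the highest photosynthesis median of the buds, at -0.23. The median of the mitosis genes AUR1, AUR2 and AUR3 was between 0.48 and 1.06 in scion buds and between 1.48 and 1.61 in rootstock buds, without overlap. None of these genes was called between scion and rootstock buds (limma, adjusted p = 0.678, 0.624 and 0.795), and AUR3 by itself overlapped. Bud arrays of scion and rootstock did not overlap for 25.2% of all probe sets. The 5 tapetum and pollen genes moved apart. Of these, TDF1 was called lower in scion than in rootstock buds (-1.59, adjusted p = 0.0348) and GRP17 higher (1.97, adjusted p = 0.0349), AMS was below without overlap (-0.88, adjusted p = 0.121), and A9 and LAT52-like overlapped. TDF1 and GRP17 were placed through the study's tables, so their calls are not independent of that choice. None of AMS, A9 and LAT52-like, placed through the platform annotation, was called. The part of these shifts in the differences of the members was not tested.

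More members were called between the organs than between scion and rootstock. In the rootstock 15 members were called higher and 26 lower in flower buds than in leaves, where called means an adjusted p of at most 0.05 over all probe sets (limma, Benjamini-Hochberg) and a fold change of at least 2. In the scion 11 were called higher and 22 lower. Over all probe sets 25.7% were called in the rootstock, 13.7% higher and 12% lower, and 18.4% in the scion, 10.5% higher and 7.91% lower. The median log2 difference of the members was -0.77 in the rootstock and -0.49 in the scion, beside -0.05 and -0.06 over all probe sets. Since the list was drawn up from genes that differ among these groups, nothing is read from these shares. Of the 41 members called in the rootstock and the 33 called in the scion 31 were shared, all 31 with the same sign, and 17 members were called in neither.

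**Figure D1:**
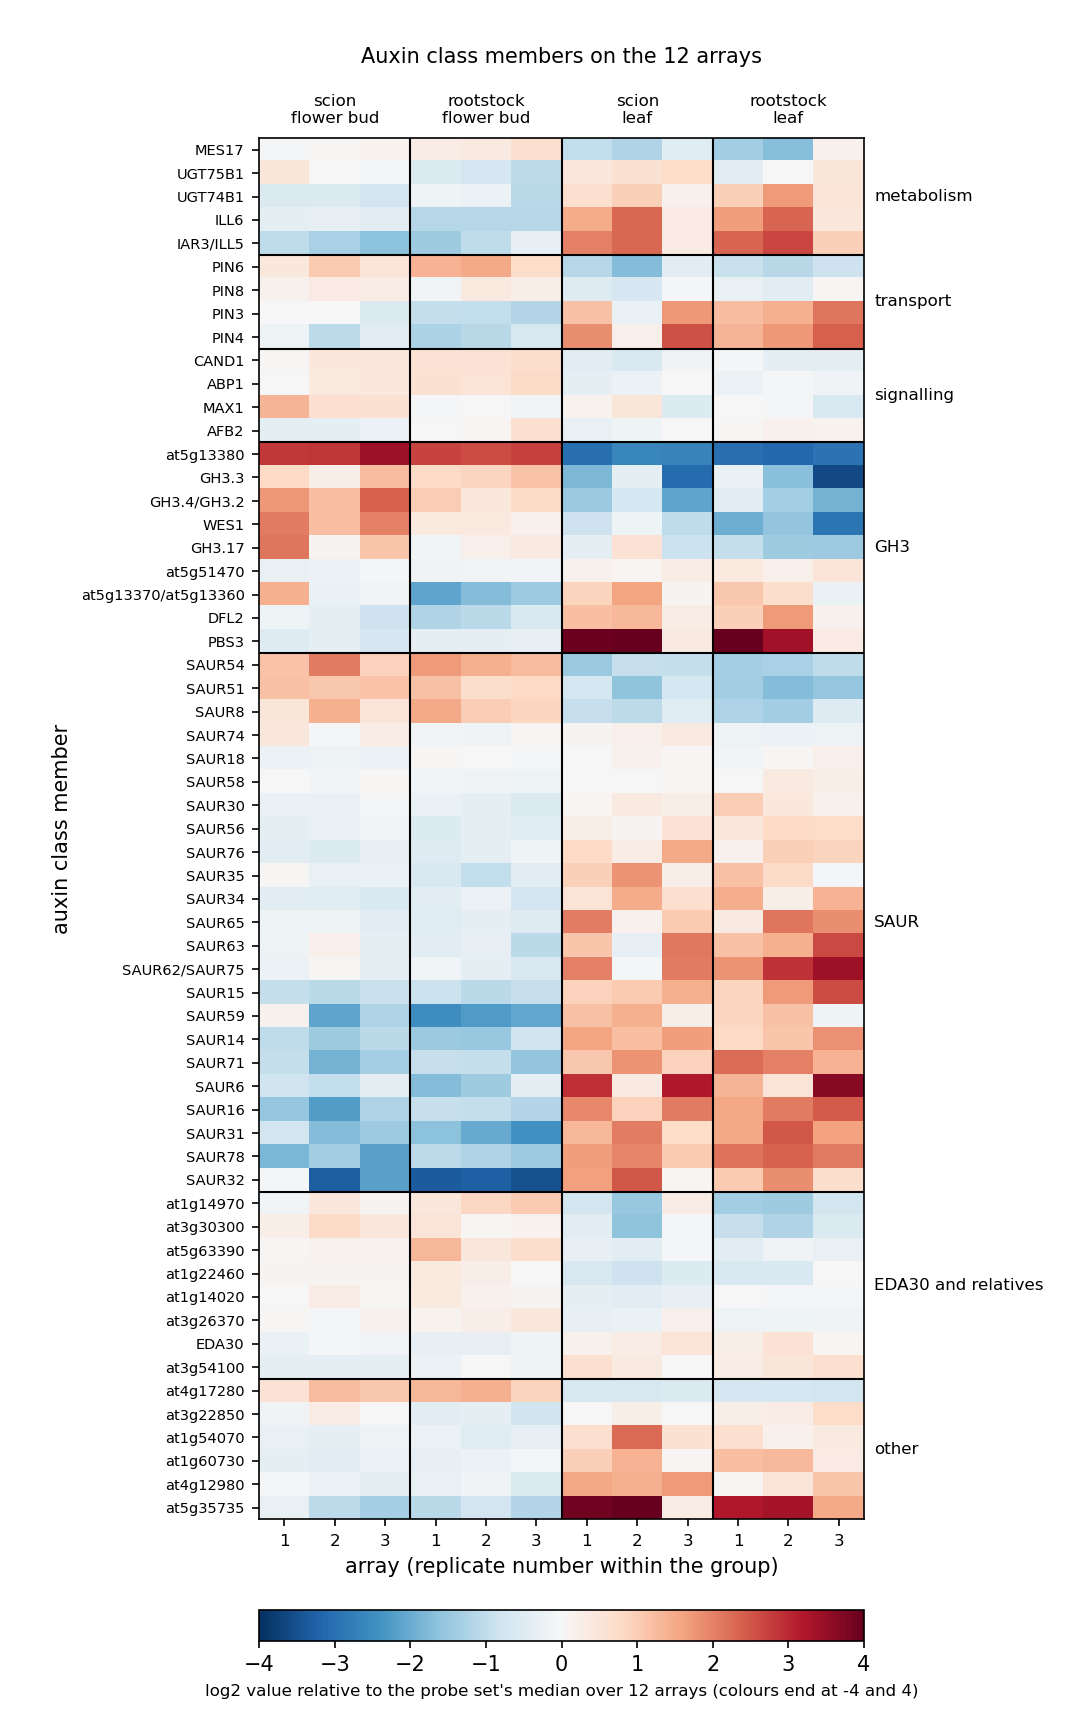
Log2 values of the members (rows, by family, without the 1 that is not reported) on the 12 arrays (columns, replicates 1 to 3 of each group), each relative to the median of the probe set over the 12 arrays. Most SAUR rows run from blue in flower buds to red in leaves, at5g13380 runs the other way, and PBS3 and at5g35735 are lowest in replicate 3 of both leaf groups, PBS3 at 0.35 and 0.33.

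**Figure D2:**
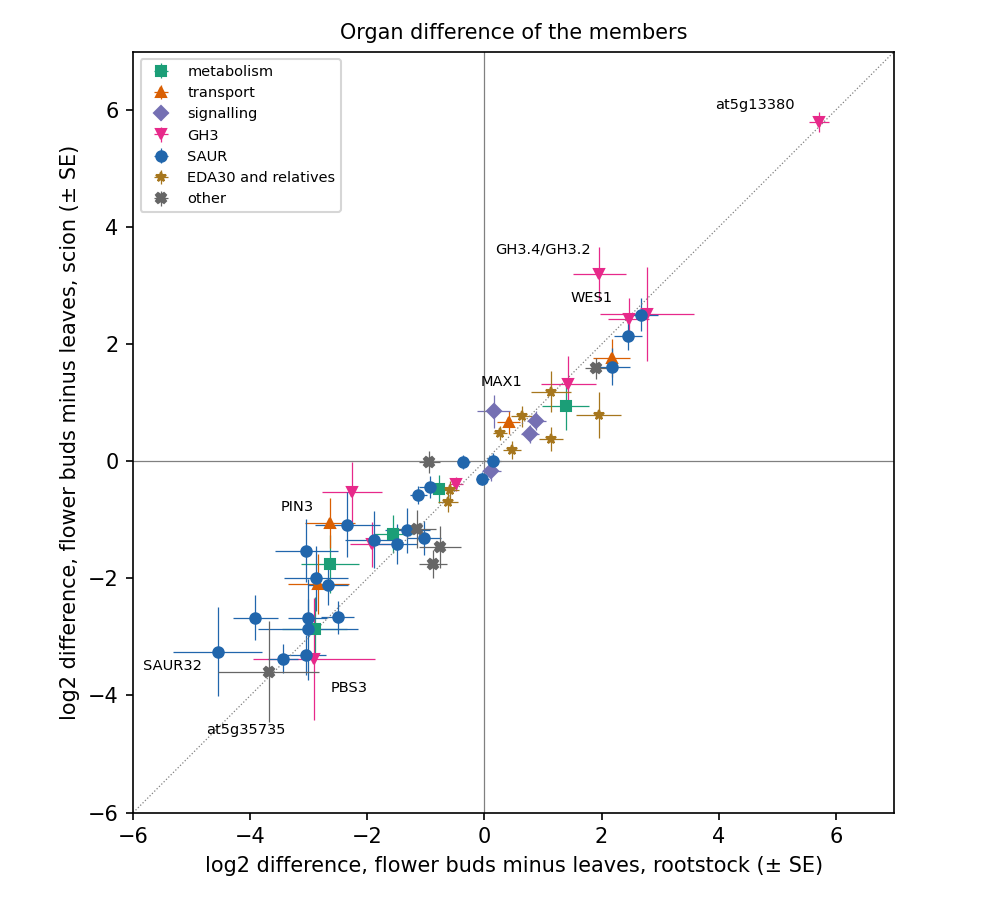
Log2 difference of flower buds minus leaves in the rootstock (x axis) against that in the scion (y axis), 1 point per reported member with its SE in both directions and 3 arrays per group. Members called in both lie in the lower left and upper right, with at5g13380 at 5.71 and 5.80.

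Between scion and rootstock no member was called, either in flower buds (0 of 60, smallest adjusted p = 0.116 with limma) or in leaves (0 of 60, smallest adjusted p = 0.234), where 0.396% and 0.0528% of all probe sets were called. At an unadjusted p of at most 0.05 there were 11 of the 60 members in buds, 7 of them higher and 4 lower in the scion, beside 11.0% of all probe sets. In leaves there were 9 of the 60, 6 higher and 3 lower, beside 7.15%. A one-way analysis of variance, which the methods name without its groups and which was run here over the 4, gave 5 members in buds and 3 in leaves with the same 2-fold limit, and limma with array weights gave 4 and 5. With the replicate number within the organ as a block, which pairs the arrays by number, 2 members were called in buds and 1 in leaves. Same-numbered arrays deviated together in leaves and not clearly in buds. Leaving out 1 array of the organ moved the difference by over 1.5 times or changed its sign for 41 members in buds and 51 in leaves, with changes of sign for 9 and 27. In that analysis of variance 51 of the 60 members passed at the adjusted level and so did 38.2% of all probe sets, and the list was drawn from genes found to differ among these groups.

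In direction the class was evenly divided. In scion flower buds 32 members had higher values than in the rootstock and 28 lower, beside 44.0% higher over all probe sets, and the median difference was 0.08, beside -0.04. In scion leaves 29 were higher, beside 47.8%, and the median was -0.04, beside -0.01. The arrays of scion and rootstock did not overlap for 22 of the 60 members in buds, 11 of them with the scion above, while this held for 25.2% of all probe sets. In leaves they did not overlap for 9 of the 60, 5 with the scion above, beside 8.91% of all. For the difference between the graft effect in buds and that in leaves no member passed (0% of all probe sets did), the smallest adjusted p being 0.352, and 7 of the 60 members had an unadjusted p of at most 0.05, beside 7.74%.

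**Figure D3:**
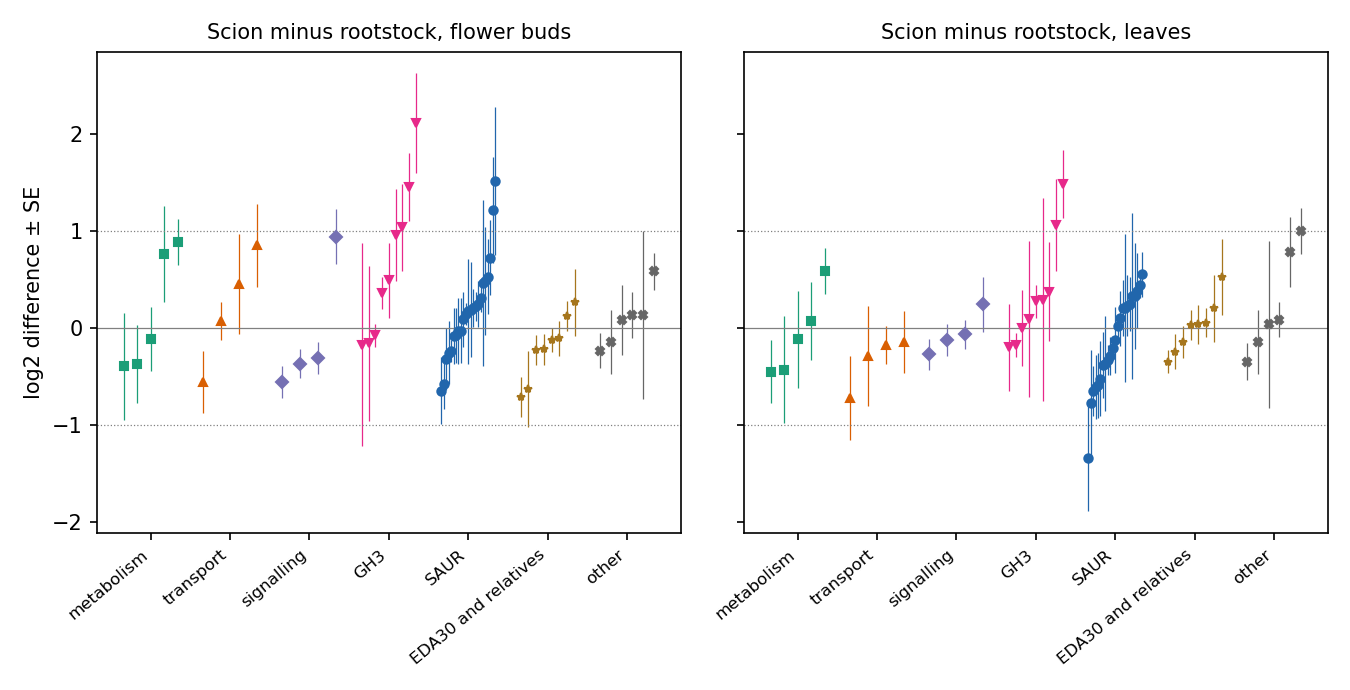
Log2 difference of scion minus rootstock in flower buds (left) and leaves (right) for each reported member with its SE, grouped by family and ordered by size within it (3 arrays per group). Dotted lines mark a 2-fold difference, which 4 GH3 or SAUR probe sets with differences of 1.21 to 2.11 pass in flower buds together with GH3.4/GH3.2 at 1.04, and none of the points passed the adjusted test.

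Among the metabolic members the hydrolases that free auxin from its amino acid conjugates were lower in flower buds than in leaves. The probe set of IAR3 and ILL5 (at1g51760 and at1g51780) read -1.02, -1.29 and -1.64 in scion buds and -1.41, -1.01 and -0.34 in rootstock buds, against 2.01, 2.30 and 0.34 in scion leaves and 2.31, 2.68 and 0.95 in rootstock leaves. Buds and leaves did not overlap, leaf replicate 3 was the lowest of both leaf groups, and the organ difference was -2.90 in the rootstock and -2.86 in the scion (adjusted p = 0.00178 and 0.003). ILL6 (at1g44350), a relative of these hydrolases that acts mainly on jasmonate conjugates, read -0.40, -0.34 and -0.41 in scion buds and -1.13, -1.15 and -1.14 in rootstock buds. Its leaf values were 1.48, 2.30 and 0.34 in the scion and 1.69, 2.33 and 0.45 in the rootstock. The scion buds all lay above the rootstock buds, by 0.76 ± 0.50 (SE, adjusted p = 0.676), and the organ difference was -2.63 in the rootstock and -1.75 in the scion.

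UGT75B1 (at1g05560), a glucosyltransferase that can attach glucose to auxin, read 0.47, -0.01 and -0.08 in scion buds and -0.56, -0.66 and -1.05 in rootstock buds. The scion lay above the rootstock on every bud array, by 0.89 ± 0.24 (SE, adjusted p = 0.155). Its leaf values were 0.47, 0.62 and 0.74 in the scion and -0.42, 0.01 and 0.49 in the rootstock, which overlap, with a difference of 0.58 (adjusted p = 0.641). UGT74B1 (at1g24100), which acts in glucosinolate synthesis, read -0.58, -0.54 and -0.76 in scion buds, -0.18, -0.25 and -1.09 in rootstock buds, 0.68, 0.97 and 0.18 in scion leaves and 0.97, 1.69 and 0.53 in rootstock leaves. It was called lower in buds in both the rootstock (-1.57) and the scion (-1.23), and scion and rootstock overlapped in both organs. MES17, an esterase of methylated auxin, was higher in buds by 1.39 in the rootstock, where it was called, and by 0.94 in the scion, where it was not.

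The PIN efflux carriers were divided by organ. PIN6 was called higher in buds in both graft parts (2.17 in the rootstock and 1.76 in the scion), and PIN8, a carrier known from pollen, was higher by 0.42 and 0.67 without passing.

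PIN3 (at1g70940) and PIN4 (at2g01420), which carry auxin in vascular and root tissue, ran the other way. PIN4 read -0.20, -1.03 and -0.44 in scion buds and -1.28, -1.12 and -0.64 in rootstock buds, against 1.85, 0.20 and 2.55 in scion leaves and 1.34, 1.73 and 2.40 in rootstock leaves. It was called lower in buds of the rootstock (-2.84) and of the scion (-2.09), and scion leaf replicate 2 was the lowest leaf array. PIN3 read 0.02, -0.02 and -0.54 in scion buds, all above the rootstock buds at -0.94, -0.98 and -1.16, and 1.17, -0.27 and 1.73 in scion leaves beside 1.24, 1.44 and 2.14 in rootstock leaves. The graft difference was 0.85 ± 0.43 in buds and -0.73 ± 0.43 in leaves (SE, adjusted p = 0.515 and 0.845), and the difference between both was 1.58 (unadjusted p = 0.0262, adjusted p = 0.537). Without scion leaf replicate 2 the leaf difference was -0.15. PIN3 was called lower in buds in the rootstock, at -2.63, and not in the scion, at -1.06.

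The signalling members differed by less than 2-fold between organs, and none of the 4 was called in either organ comparison. AFB2 (at3g26810), a receptor of the TIR1 family, read -0.40, -0.35 and -0.23 in scion buds, below all rootstock buds at 0.01, 0.07 and 0.63. In leaves it read -0.28, -0.17 and -0.01 in the scion and 0.05, 0.17 and 0.14 in the rootstock, again without overlap. These differences were -0.56 ± 0.16 in buds and -0.28 in leaves (SE, adjusted p = 0.192 and 0.845). ABP1 (at4g02980), an auxin-binding protein, read 0.00, 0.40 and 0.41 in scion buds and 0.61, 0.55 and 0.77 in rootstock buds, and CAND1 (at2g02560), which regulates the assembly of ubiquitin ligases with F-box receptors, read 0.05, 0.42 and 0.45 against 0.56, 0.59 and 0.71. Scion buds were thus below the rootstock buds for all of AFB2, ABP1 and CAND1, with -0.37 (adjusted p = 0.375) for ABP1 and -0.31 (adjusted p = 0.532) for CAND1. Bud arrays of the graft parts did not overlap for 25.2% of all probe sets, with the scion below for 3216 of 22746. Without scion bud replicate 1 the differences of ABP1 and CAND1 were -0.24 and -0.19, and without rootstock bud replicate 3 that of AFB2 was -0.36. In leaves ABP1 read -0.36, -0.24 and 0.00 in the scion and -0.22, -0.04 and -0.14 in the rootstock. CAND1 read -0.41, -0.60 and -0.14 in scion leaves and -0.05, -0.39 and -0.35 in rootstock leaves. The graft parts overlapped for both.

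MAX1 (at2g26170), a cytochrome P450 of strigolactone synthesis that the table also lists under auxin, went the opposite way to these 3 in buds. It read 1.35, 0.67 and 0.60 in scion buds, above all rootstock buds at -0.06, -0.02 and -0.11, a difference of 0.94 ± 0.29 (SE, adjusted p = 0.212). On leaf arrays MAX1 read 0.14, 0.49 and -0.56 in the scion and 0.02, -0.06 and -0.62 in the rootstock, which overlap. The highest bud array was scion replicate 1, and without it the difference was 0.70. That array also had the highest photosynthesis median of the buds, and a link of MAX1 with that median was not tested.

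The GH3 family held the highest difference of scion over rootstock in each organ. WES1 (GH3.5, at4g27260), an enzyme that conjugates auxin to amino acids, read 2.06, 1.21 and 2.02 in scion buds and 0.38, 0.38 and 0.17 in rootstock buds. In leaves it read -0.84, -0.17 and -1.01 in the scion and -1.97, -1.58 and -2.91 in the rootstock. Every scion array lay above every rootstock array of the same organ, and every bud array above every leaf array. The scion exceeded the rootstock 2.74-fold in buds and 2.79-fold in leaves, by 1.45 ± 0.35 and 1.48 ± 0.35 on the log2 scale (SE, n = 3 arrays per group, limma adjusted p = 0.116 and 0.234), so that it was called in neither organ.

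Leaf arrays of the same replicate number deviated together over all probe sets. With the replicate number within the organ as a block, limma called the leaf difference of WES1 (adjusted p = 0.0391). That fit also called its bud difference (adjusted p = 0.0185), although bud arrays of the same number did not clearly deviate together. Over the fits that left out 1 array the difference ran from 1.30 to 1.73 in buds (adjusted p 0.0531 to 0.453) and from 1.10 to 1.77 in leaves (adjusted p 0.176 to 0.518). The graft difference did not itself differ detectably between the organs, at -0.03 ± 0.50 (SE, adjusted p = 0.995). WES1 is also one of the 7 members in the list of scion and rootstock differences. The flower marker median was also higher in scion than in rootstock leaves, and scion leaf replicate 2, the highest leaf array for WES1, had the lowest flower median of the scion leaves at -2.97. The part of bud transcripts in the leaf difference was not tested.

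The probe set of the neighbouring GH3 genes at5g13370 and at5g13360 had the largest bud difference of the class. It read 1.43, -0.27 and -0.12 in scion buds and -2.10, -1.72 and -1.47 in rootstock buds, again without overlap, a difference of 2.11 ± 0.51 (SE, adjusted p = 0.116). In leaves it read 0.90, 1.57 and 0.12 in the scion and 1.07, 0.69 and -0.28 in the rootstock, with a difference of 0.37 (adjusted p = 0.966). It was called lower in buds than in leaves in the rootstock (-2.26) but not in the scion (-0.52), and the difference of both had an unadjusted p of 0.0359 and an adjusted p of 0.585. Scion bud replicate 1 was the highest bud array, and without it the bud difference was 1.57. With the replicate number within the organ as a block, limma called the bud difference (adjusted p = 0.0354). Bud arrays of the same number did not clearly deviate together.

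GH3.17 (at1g28130), which conjugates auxin to glutamate, read 2.13, 0.10 and 1.10 in scion buds and -0.10, 0.21 and 0.35 in rootstock buds, which overlap. In leaves the scion, at -0.40, 0.59 and -0.85, lay above the rootstock, at -0.97, -1.43 and -1.44. These differences were 0.96 ± 0.47 in buds and 1.06 ± 0.47 in leaves (SE, adjusted p = 0.505 and 0.69), and they were 0.45 in buds without scion bud replicate 1 and 0.66 in leaves without scion leaf replicate 2.

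Among the GH3 genes at5g13380 had the largest organ difference of all members. It read 2.84, 2.86 and 3.4 in scion buds and 2.69, 2.62 and 2.72 in rootstock buds, against -3.01, -2.62 and -2.66 in scion leaves and -3.03, -3.13 and -2.95 in rootstock leaves. The buds thus lay far above the leaves, by 5.71 in the rootstock and 5.80 in the scion (adjusted p = 1.94e-08 and 2.09e-08), while the graft difference in buds was 0.36 ± 0.17 (SE, adjusted p = 0.474) and 0.17 without scion bud replicate 3. PBS3 (GH3.12, at5g13320), which acts in salicylic acid synthesis, stands close to at5g13380 and to at5g13370 in the genome and had the reverse pattern. It read -0.52, -0.38 and -0.68 in scion buds and -0.35, -0.38 and -0.33 in rootstock buds, against 3.92, 4.26 and 0.35 in scion leaves and 3.97, 3.37 and 0.33 in rootstock leaves. Replicate 3 of both leaf groups was low, at -3.74 in the scion and -3.34 in the rootstock relative to the mean of replicates 1 and 2, and the difference between buds and leaves was called in the rootstock (-2.91, adjusted p = 0.0447) and in the scion (-3.37, adjusted p = 0.0309).

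The other 4 GH3 probe sets differed between scion and rootstock by -0.16 to 1.04 in buds and by -0.20 to 0.09 in leaves, and none was called. Of the 9 GH3 probe sets 5 were called higher and 3 lower in buds in the rootstock, and 4 higher and 2 lower in the scion. Over all probe sets 13.7% were called higher and 12% lower in the rootstock, and 10.5% and 7.91% in the scion. Since the list was drawn up from genes that differ among these groups, nothing is read from the GH3 share.

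**Figure D4:**
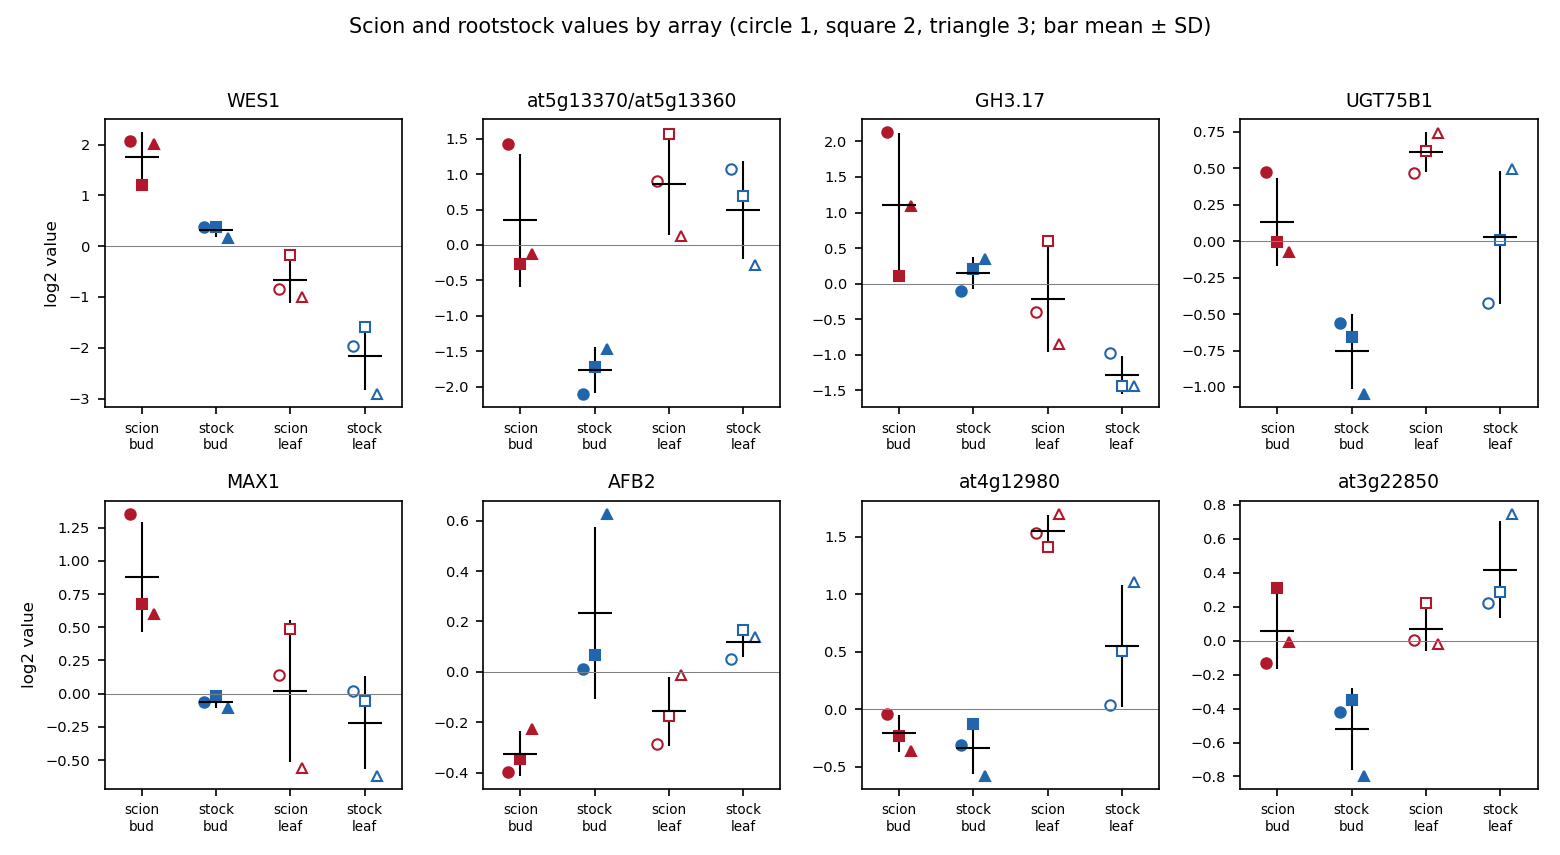
Log2 values (y axis) of 8 members on every array in the 4 groups, with replicates 1, 2 and 3 as circle, square and triangle and the mean with its SD as a bar. WES1 is higher in the scion on every array of both organs, AFB2 is lower on every array of both, and at3g22850 is higher in scion buds and lower in scion leaves.

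SAUR genes made up the largest family, and most were lower in flower buds. In the rootstock 16 of the 23 were called lower and 3 higher in buds, and in the scion 12 were called lower and 3 higher, with family medians of -1.89 and -1.34. Of all probe sets 12% were called lower and 13.7% higher in the rootstock, and 7.91% and 10.5% in the scion. The list was drawn up from genes that differ among these groups, so nothing is read from the SAUR share. Within the family SAUR32 (at2g46690) had the largest difference in the rootstock, at -4.56 (adjusted p = 0.000795). It read -0.08, -3.30 and -2.16 in scion buds and -3.32, -3.27 and -3.48 in rootstock buds, against 1.63, 2.50 and 0.08 in scion leaves and 1.05, 1.86 and 0.69 in rootstock leaves. Scion bud replicate 1 lay near the leaf values, while the other scion buds were nearer to or level with the rootstock buds. The graft difference in buds was 1.51 ± 0.76 (SE, adjusted p = 0.515), and 0.63 without that array.

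SAUR59 (at3g60690) behaved alike, with 0.18, -2.12 and -1.22 in scion buds and -2.48, -2.25 and -2.06 in rootstock buds. Its bud difference was 1.21 ± 0.55 (SE, adjusted p = 0.453), and 0.59 without scion bud replicate 1. That array also had the highest photosynthesis median of the buds, whose part in the values of SAUR32 and SAUR59 was not tested. In leaves SAUR59 read 1.18, 1.43 and 0.24 in the scion and 0.87, 1.17 and -0.18 in the rootstock, and the organ difference was -2.88 in the rootstock and -2.00 in the scion.

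SAUR78 (at1g72430) had lower means in the scion in both organs. It read -1.84, -1.41 and -2.18 in scion buds and -1.04, -1.20 and -1.45 in rootstock buds, and 1.68, 1.96 and 1.04 in scion leaves and 2.18, 2.37 and 2.08 in rootstock leaves. The groups overlapped in buds but not in leaves, with differences of -0.58 ± 0.25 and -0.65 ± 0.25 (SE, adjusted p = 0.431 and 0.611), and in leaves it was -0.39 without scion leaf replicate 3. Its organ difference was called in the rootstock (-3.44, adjusted p = 4.89e-06) and in the scion (-3.37, adjusted p = 9.68e-06). SAUR74 (at3g12955) differed between organs by 0.15 in the rootstock and 0.01 in the scion and was higher in scion leaves, at 0.12, 0.21 and 0.36, than in rootstock leaves, at -0.20, -0.23 and -0.21. Its leaf difference was 0.44 ± 0.14 (SE, adjusted p = 0.441), and in buds it read 0.45, -0.04 and 0.31 in the scion and -0.09, -0.14 and 0.04 in the rootstock.

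Sets of SAUR genes stand next to each other in the genome, and they are given for that position, outside the rule for named genes. SAUR14, SAUR15 and SAUR16 (at4g38840, at4g38850 and at4g38860) follow each other directly. Each was called lower in buds in both graft parts, with -2.51, -2.68 and -3.04 in the rootstock and -2.66, -2.11 and -3.31 in the scion. On single arrays they were between -2.23 and -0.79 in buds and between 0.79 and 2.60 in leaves, so that buds and leaves did not overlap for any of the 3.

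SAUR62, SAUR63 and SAUR65 (at1g29430, at1g29440 and at1g29460) stand in a row with 1 gene between each pair, and the probe set of SAUR62 also reads SAUR75. They too were called lower in rootstock buds, at -3.04, -2.35 and -1.89, but not in scion buds, at -1.53, -1.08 and -1.34. Scion leaf replicate 2 was the lowest leaf array for all 3, at -0.06, -0.33 and 0.16, where scion leaf replicates 1 and 3 read 2.01 and 2.06 for SAUR62/SAUR75, 1.12 and 2.10 for SAUR63 and 2.03 and 1.05 for SAUR65. In rootstock leaves SAUR62/SAUR75 read 1.79, 2.89 and 3.38, SAUR63 1.18, 1.42 and 2.63 and SAUR65 0.36, 2.14 and 1.85. SAUR62/SAUR75 had the most negative leaf difference between scion and rootstock, at -1.35 ± 0.54 (SE, adjusted p = 0.63). It was -0.65 without scion leaf replicate 2, the array that was low for PIN3 and PIN4 as well.

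**Figure D5:**
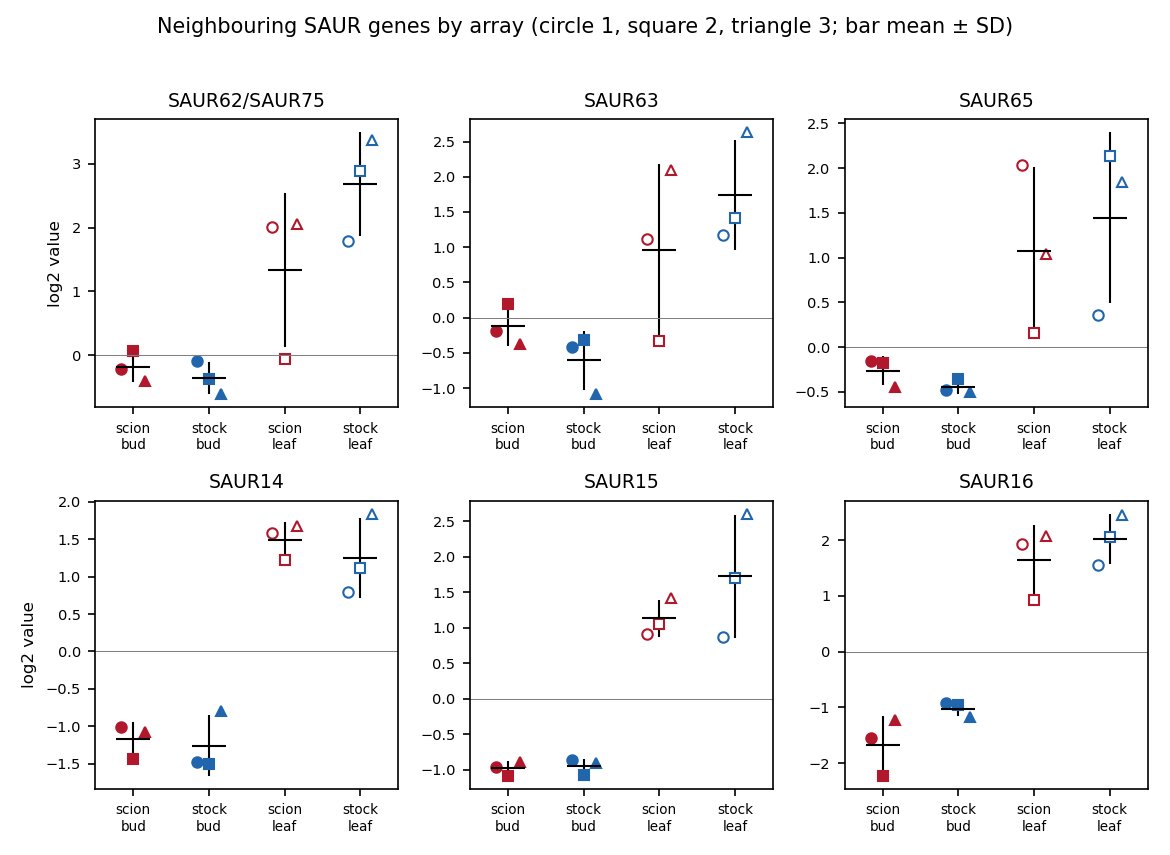
Log2 values (y axis) of 6 SAUR probe sets by array in the 4 groups, with replicates 1, 2 and 3 as circle, square and triangle and the mean with its SD as a bar. SAUR14, SAUR15 and SAUR16 are at -0.79 or below on every bud array and at 0.79 or above on every leaf array, while scion leaf replicate 2 (square) falls to the bud values for SAUR62/SAUR75 and SAUR63.

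The 19 SAUR probe sets other than SAUR32, SAUR59, SAUR74 and SAUR78 differed between scion and rootstock by -0.65 to 0.72 in buds and by -1.35 to 0.55 in leaves. Their organ difference ran from -3.92 to 2.68 in the rootstock and from -3.31 to 2.50 in the scion. The 3 SAUR genes called higher in buds were SAUR8, SAUR51 and SAUR54, in both graft parts.

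EDA30, named for an arrest of the embryo sac, and 7 relatives that the study's table mostly gives as unknown proteins were mostly not called between organs. In the rootstock 3 of the 8 were called higher in buds and none lower, and in the scion 1 was called higher. Over all probe sets 13.7% were called higher in the rootstock and 10.5% in the scion. In scion buds 6 of the 8 had lower values than in rootstock buds, while 44.0% of all probe sets had higher values in the scion. The gene at5g63390 read 0.05, 0.15 and 0.15 in scion buds, below all rootstock buds at 1.33, 0.47 and 0.70, a difference of -0.71 ± 0.20 (SE, adjusted p = 0.186), which was -0.46 without rootstock bud replicate 1. In leaves it read -0.34, -0.42 and -0.05 in the scion and -0.45, -0.15 and -0.31 in the rootstock, with a difference of 0.03, and the difference between both organs was -0.75 (unadjusted p = 0.0264, adjusted p = 0.538). It was called higher in buds in the rootstock, at 1.14, and not in the scion, at 0.39.

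For at1g14970 the scion buds, at -0.12, 0.41 and 0.12, also lay below the rootstock buds, at 0.45, 0.82 and 1.04. Its leaves read -0.74, -1.51 and 0.29 in the scion and -1.39, -1.42 and -0.73 in the rootstock, and it was called higher in rootstock buds than leaves (1.95), with differences between scion and rootstock of -0.63 ± 0.39 in buds and 0.53 in leaves (SE, adjusted p = 0.637 and 0.903). The gene at3g30300 was called higher in buds in both graft parts (1.13 and 1.19), with 0.27, 0.76 and 0.44 in scion buds and 0.51, 0.05 and 0.13 in rootstock buds. In leaves it read -0.45, -1.60 and -0.05 in the scion and -0.93, -1.20 and -0.57 in the rootstock. For at3g30300 the scion and the rootstock overlapped in both organs.

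In at1g14020 the scion leaves, at -0.36, -0.45 and -0.34, lay below the rootstock leaves, at 0.01, -0.04 and -0.06. The difference was small, at -0.35 ± 0.12 (SE, adjusted p = 0.518), and in buds it read -0.01, 0.28 and 0.04 in the scion and 0.38, 0.19 and 0.12 in the rootstock. The values of at1g22460 were 0.09, 0.12 and 0.10 in scion buds, 0.39, 0.25 and 0.01 in rootstock buds, -0.64, -0.81 and -0.54 in scion leaves and -0.66, -0.60 and -0.01 in rootstock leaves. Its buds lay above its leaves without reaching 2-fold (0.64 and 0.77). The other 3 of the 8 differed between scion and rootstock by -0.23 to 0.12 in buds and by -0.14 to 0.05 in leaves.

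Of the 6 remaining members, at4g12980, listed as a putative auxin-responsive protein, had the highest leaf difference after WES1 and GH3.17. It read 1.53, 1.41 and 1.70 in scion leaves, above all rootstock leaves at 0.04, 0.50 and 1.10, by 1.00 ± 0.24 (SE, adjusted p = 0.237). In buds it read -0.04, -0.23 and -0.36 in the scion and -0.31, -0.13 and -0.58 in the rootstock, by 0.13 (adjusted p = 0.933), and the difference between the organs was -0.87 (unadjusted p = 0.0267, adjusted p = 0.539). It was called lower in buds in the scion, at -1.76, and not in the rootstock, at -0.89.

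The gene at3g22850, given as an unknown protein, was the member in which scion and rootstock separated in opposite directions. It read -0.13, 0.31 and 0.00 in scion buds against -0.42, -0.35 and -0.80 in rootstock buds, and 0.00, 0.22 and -0.02 in scion leaves against 0.23, 0.29 and 0.75 in rootstock leaves. The differences were 0.58 ± 0.19 in buds and -0.35 ± 0.19 in leaves (SE, adjusted p = 0.243 and 0.793), and their difference was 0.93 (unadjusted p = 0.00511, adjusted p = 0.352). Without rootstock leaf replicate 3 the leaf difference was -0.19. The margin in leaves was narrow, with the highest scion array at 0.22 and the lowest rootstock array at 0.23.

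Strong organ differences were found in a further pair of these members. The gene at5g35735, listed with an auxin-responsive family, read -0.29, -1.04 and -1.31 in scion buds and -1.08, -0.78 and -1.17 in rootstock buds, against 3.87, 3.99 and 0.29 in scion leaves and 3.21, 3.32 and 1.51 in rootstock leaves. As in PBS3, replicate 3 was the lowest of both leaf groups, and buds were called lower in the rootstock (-3.69) and in the scion (-3.59). The gene at4g17280, which the table describes by its DOMON and cytochrome b561 domains, was called higher in buds (1.91 and 1.59), with 0.58, 1.26 and 1.07 in scion buds and 1.31, 1.41 and 0.90 in rootstock buds. Its leaf arrays were close together, at -0.64, -0.63 and -0.58 in the scion and -0.69, -0.69 and -0.72 in the rootstock.

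The dormancy-related gene at1g54070 read 0.69, 2.26 and 0.61 in scion leaves and 0.67, 0.17 and 0.37 in rootstock leaves, so that 1 scion array set the difference of 0.78 ± 0.36 (SE, adjusted p = 0.718), which was 0.25 without scion leaf replicate 2. In buds it read -0.28, -0.37 and -0.17 in the scion and -0.22, -0.50 and -0.33 in the rootstock. The aldo/keto reductase gene at1g60730 was called lower in buds in both graft parts, at -1.15 in each.

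Further genes of the auxin pathway that the table does not list were looked up from a list of 80 genes. The platform annotation gives a single-gene probe set for 13 of these, none of them a carrier, a receptor or an ARF, and the study's tables, chosen on these samples, name 3 more. None of these 16 was called between scion and rootstock in either organ. Among the YUC genes of auxin synthesis, YUC2 read 0.31, 0.24 and 0.57 in scion buds and 0.09, -0.06 and -0.26 in rootstock buds, a difference of 0.45 ± 0.19 without overlap (SE, adjusted p = 0.422). YUC4 had 0.67 and 0.71 between buds and leaves in rootstock and scion, and the leaf differences of YUC6 and YUC4 between scion and rootstock were 0.26 and -0.16 (adjusted p = 0.938 and 0.964).

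In the conjugation list, DAO1, an enzyme that oxidises auxin, was called lower in rootstock buds than leaves (-1.05). On single arrays DAO1 read 0.03, -0.03 and -0.13 in scion buds, above the rootstock buds at -0.15, -0.13 and -0.52. The margin was very narrow, with the lowest scion bud array at -0.1307 and the highest rootstock bud array at -0.1326. The difference of DAO1 between scion and rootstock was 0.23 in buds and -0.56 in leaves (adjusted p = 0.909 and 0.847), and those of GH3.1 in leaves and GH3.9 in buds were -0.24 and 0.10 (adjusted p = 0.838 and 0.977). Of the Aux/IAA repressors with a platform name, IAA30 differed most by organ, with 0.98 in the rootstock and 0.84 in the scion. Between scion and rootstock IAA20 and IAA30 differed by -0.13 and -0.17 in buds (adjusted p = 0.802 and 0.807), and IAA33 and IAA34 by -0.24 and -0.18 in leaves (adjusted p = 0.895 and 0.872).

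The 3 Aux/IAA genes named by the study's tables, IAA7, IAA14 and IAA19, are given apart for that reason. IAA19 read -0.56, -0.20 and -0.54 in scion leaves, below all rootstock leaves at 0.72, 0.56 and 0.61, by -1.06 ± 0.17 (SE, adjusted p = 0.0623). IAA14 read 0.19, -0.82 and -0.80 in scion buds, above the rootstock buds at -1.34, -1.39 and -1.85, by 1.05 ± 0.32 (SE, adjusted p = 0.21), and 0.90, 1.34 and 0.78 in scion leaves, above the rootstock leaves at -0.19, 0.75 and 0.44. IAA7 was called lower in buds in the rootstock, at -3.14, and IAA14 in the rootstock and the scion, at -1.86 and -1.49.

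Leaf replicate 3 of scion and rootstock deviated together in many members, as it did over the whole array. Relative to the mean of replicates 1 and 2 it was higher in both leaf groups for 27 of the 60 members (45%) and lower in both for 20 (33.3%), where it was so for 46.3% and 29.5% of all probe sets. It was more than 1 log2 unit higher in both for 3 members and lower in both for 9 (15.0%), beside 3.54% and 5.19% of all probe sets. The lower members included PBS3, at5g35735 (-3.64 in the scion and -1.76 in the rootstock), GH3.3 (-2.01 and -2.64), IAR3/ILL5 (-1.82 and -1.55), ILL6 (-1.55 and -1.56) and SAUR59 (-1.06 and -1.20). The 3 higher members were SAUR6 (1.58 and 2.69), SAUR63 (1.71 and 1.33) and SAUR62/SAUR75 (1.09 and 1.04). Scion and rootstock arrays of this number thus deviated the same way in the GH3, hydrolase and SAUR members named here. For SAUR6 and SAUR62/SAUR75 scion leaf replicate 3, at 3.22 and 2.06, lay close to replicate 1, at 2.93 and 2.01. There replicate 2 was the array that lay apart, at 0.35 and -0.06.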

How the data were processed

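Expression was measured on 12 ATH1 arrays, 3 for each of 4 groups, as the labels give them. The deposited values are log2 signals that the authors made with robust multiarray averaging in GeneSpring. The median of every probe set over the 12 arrays was within 5e-07 of 0, a centring that the sources used here do not state, so levels were not compared. Raw intensities were not used here, and the number of arrays limits the precision. After 64 control probe sets were left out, 22746 were fitted with limma 3.58.1 in R 4.3.3 (1 mean per group, lmFit and eBayes, Benjamini-Hochberg adjustment over all probe sets). To be called, a probe set had to differ at least 2-fold with an adjusted p no higher than 0.05, and the difference between the graft effects of the organs needed the adjusted p alone. Tables and plots were made with Python 3.11.15, pandas 2.3.3 and matplotlib 3.10.9, and the fit was tested on simulated data.

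The members and lists were chosen with earlier results of these data known. Members with every array given were, in each family, the 2 with the smallest p in buds, the 2 in leaves and the 2 with the largest mean organ difference, 30 in all, of which 1 is not reported here and is left out of the plots, and the other 30 are given by range and count. SAUR genes that neighbour each other, GH3.4/GH3.2, GH3.3, SAUR6, SAUR8, SAUR51 and SAUR54 were named outside this rule after their values were seen. Pathway genes were named by a like rule. Same-numbered scion and rootstock arrays deviated together in leaves (correlation of deviations from the group means 0.342 to 0.816) and not clearly in buds (0.0234 to 0.201). The main fit did not pair the arrays by number in either organ, and only the alternatives with the replicate number as a block used it. Of the differently numbered leaf pairs, scion 2 with rootstock 1 reached 0.396, above the pair of replicates 1 at 0.342, and the others were between -0.788 and -0.0166. Over the members alone the pair of replicates 1 was at -0.0166 and scion 2 with rootstock 1 at 0.728. The alternatives were analysis of variance across all groups (of which the methods name the test only), array weights, the replicate number as a block, other sample subsets, a robust prior, quantile normalization, array centring, a range filter and each array left out in turn. No sequence is given here.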

Additional observations from a re-analysis of the deposited data

Results flagged for a closer look

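The gene at3g22850 was singled out because the difference between scion and rootstock ran in opposite directions in the 2 organs on every array: scion buds lay above and scion leaves below the rootstock, and the graft effect in buds exceeded that in leaves by 0.93 on the log2 scale. The tested difference had an unadjusted p of 0.00511 and an adjusted p of 0.352 over all probe sets (limma), the leaf difference of -0.35 was -0.19 without rootstock leaf replicate 3, and no other member separated in this way. With 3 arrays per group single arrays far from their group were not screened.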

How the results depend on the processing

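No alternative called a difference of a member between scion and rootstock with the sign opposite to that reported, except for SAUR65 in leaves (-0.37, and 1.22 with array weights, adjusted p = 0.0188), and the organ counts stayed within 1.5 times of 41 and 33 in every alternative. The number of members called between scion and rootstock in buds, 0 with limma, was 5 with an analysis of variance over the 4 groups, 4 with array weights, 2 with the replicate block within the organ (WES1, adjusted p = 0.0185, and at5g13370/at5g13360, adjusted p = 0.0354) and 1 with both leaf replicates 3 left out, an alternative chosen after seeing the data (WES1, adjusted p = 0.0421). In leaves it was 3, 5 and 1 (WES1, adjusted p = 0.0391) with the analysis of variance, the array weights and the block. Among the named members 28 of 1252 single values, all of differences that were not called, changed sign. The analysis of variance tests any difference among the 4 groups, organ included. With array weights 10 members passed for the difference between the graft effects. That estimation stopped before it converged and gave scion leaf replicate 1 a weight of 37.3 against 0.2 to 5.63 for the others. Leaving out any 1 array left 0 in each of these, and the block over all arrays changed no count. The median of the members in buds, 0.08, was 0.0513 with array weights, 0.0158 with quantile normalization and 0.131 with the range filter, and 0.0432 to 0.0950 with 1 array left out. The leaf median, -0.04, changed sign to 0.0330 with the range filter, and was -0.0882 without both leaf replicates 3 and between -0.118 and -0.0016 with 1 array left out. The causes of these shifts were not tested.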
